A study of Mus musculus with 15 samples.

Results

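The chemokine ligands Ccl2, Ccl7, Ccl8, Ccl11, Cxcl9, Cxcl10 and Cxcl12 were followed in left ventricular RNA of mice with and without pressure overload. They were chosen by gene symbol, as a set of monocyte, eosinophil, interferon-induced and homeostatic chemokines, and make up 7 of the 15258 genes measured. This set and the gene lists used below were chosen with earlier results of these data known. Counts set beside the share of all genes are therefore descriptions and not tests of the lists. All 7 passed the filter on low reads, so none was left out. The RNA came from the heart, labelled as left ventricle, of male C57BL/6NRj mice, and was read by BRB-seq, a bulk assay that barcodes each RNA sample and sequences the 3′ ends of its transcripts. One group had sham surgery and saline (sham saline). Another had transverse aortic constriction, a narrowing of the aorta that loads the left ventricle with pressure, and saline (TAC saline). The last had the same constriction and NRG (TAC NRG), which the series describes as neuregulin-1β, a growth factor that acts on ERBB receptors. Saline or NRG1 was delivered by minipump. No sham group received NRG, so its effect was measured under constriction only. Each group had 5 libraries, with a single batch in the labels, batch 1. The sources used here state no age, dose or time after surgery.

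Chemokines are small secreted proteins that guide white blood cells along a gradient by binding receptors coupled to G proteins. CCL2 and CCL7 draw monocytes, in large part through CCR2. Mouse CCL8, of the same monocyte chemotactic protein (MCP) family, is known to act through CCR8, and CCL11 draws eosinophils through CCR3. CXCL9 and CXCL10 are induced by interferons and draw activated T cells through CXCR3, while CXCL12 is made by stromal and endothelial cells without an inflammatory stimulus and binds CXCR4 and the scavenging receptor ACKR3. In the heart, macrophages, fibroblasts and endothelial cells are known sources of chemokines, and recruitment of monocytes through CCL2 and CCR2 is a known part of the response to pressure overload.

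Ccl2, Ccl7, Ccl11, Ccl12 and Ccl8 follow each other in that order on mouse chromosome 11, and Cxcl9 and Cxcl10 lie on chromosome 5 with Art3 between them, while Cxcl12 lies on chromosome 6 (RefSeq, GRCm38.p6). The CC genes of chromosome 11 are similar in sequence, and the sources used here do not say how reads shared by such genes were counted. The span of Cxcl10 overlaps that of Art3 in this annotation. Use of the strand in counting is not stated either, so reads of Cxcl10 and Art3 need not be fully separated. Art3 went the other way from Cxcl10 under TAC, from 223 to 175 CPM (log2 fold change -0.36 ± 0.10, limma adjusted p = 0.0257), a call lost in 7 of 26 alternatives, among them leaving out sham saline 1, 3 or 5, or TAC saline 1, 4 or 5.

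Promoter windows of 300 bases, 250 before to 50 after the gene start, were found in RefSeq for 4 of the 7 genes, Ccl8, Cxcl9, Cxcl10 and Cxcl12. The windows of Cxcl9 and Cxcl10 are shown since these are the interferon-induced pair, of which Cxcl10 was called under TAC and Cxcl9 under NRG, and that of Cxcl12 as the contrast of a gene with none of the motifs searched. Capitals mark matches on either strand to the TATA box letters TATAAA, to the NF-kappaB consensus, to the AP-1 site TGANTCA and to the interferon response core GAAANNGAA. Windows are written 5′ to 3′ along the gene, on GRCm38.p6, at chr5:92328030-92328329 (minus strand) for Cxcl9, chr5:92348840-92349139 (minus strand) for Cxcl10 and chr6:117168285-117168584 (plus strand) for Cxcl12.
Cxcl9: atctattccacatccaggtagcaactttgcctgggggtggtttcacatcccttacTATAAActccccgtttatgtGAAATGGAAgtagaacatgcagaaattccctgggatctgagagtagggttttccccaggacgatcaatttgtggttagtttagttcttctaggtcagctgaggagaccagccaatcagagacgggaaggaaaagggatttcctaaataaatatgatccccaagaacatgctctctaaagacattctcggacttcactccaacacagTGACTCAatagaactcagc
Cxcl10: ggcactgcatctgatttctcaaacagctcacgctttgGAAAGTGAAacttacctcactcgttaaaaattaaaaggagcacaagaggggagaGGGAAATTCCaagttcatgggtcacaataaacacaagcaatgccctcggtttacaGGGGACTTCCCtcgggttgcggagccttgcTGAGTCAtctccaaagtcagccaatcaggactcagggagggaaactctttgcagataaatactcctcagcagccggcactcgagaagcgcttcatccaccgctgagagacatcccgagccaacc
Cxcl12: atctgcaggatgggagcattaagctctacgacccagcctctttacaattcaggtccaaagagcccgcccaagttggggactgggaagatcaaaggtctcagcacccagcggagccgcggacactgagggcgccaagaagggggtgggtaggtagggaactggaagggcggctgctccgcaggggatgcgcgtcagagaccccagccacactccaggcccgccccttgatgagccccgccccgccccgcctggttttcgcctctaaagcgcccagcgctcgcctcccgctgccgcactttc

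Both interferon-induced genes held 1 interferon response core, written GAAATGGAA in Cxcl9 from base -175 to -167 of the start and GAAAGTGAA in Cxcl10 from -213 to -205. This core was found in 8.56% of all 32851 promoter windows of the same length. Cxcl10 also held NF-kappaB matches from -159 to -150 and, as 2 overlapping matches, from -104 to -94, and Cxcl9 held none (8.46% of all windows hold one). Each had 1 AP-1 match, at -74 to -68 in Cxcl10 and at 32 to 38 after the start in Cxcl9 (7.81% of windows). TATAAA was found at -195 to -190 in Cxcl9 and at -32 to -27 in Ccl8 (13.6% of windows). The Cxcl12 window had 64.7% GC and 20 CpG, against medians of 52.7% and 7 over all windows. The gamma-activated core TTCNNNGAA, present in 8.30% of windows, and the STAT6-type site, which is TTC and GAA with any 4 bases between and is present in 6.95%, were found in none of the 4 windows. These matches describe the letters only.

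Library depth was 2.02 to 5.62 M reads. TAC NRG spanned that whole range (3.33 ± 1.45 M, SD, n = 5), and the other groups ran from 2.86 to 4.47 M. TAC NRG 4 and TAC NRG 5 were the shallowest libraries, at 2.02 and 2.13 M. Mitochondrially encoded genes took 30.5 to 31.8% of reads in sham saline, 26.05 to 29.6% in TAC saline and 23.7 to 29.0% in TAC NRG. Cardiomyocyte markers (7 of 7 with reads) summed to 5.91 to 7.23% of a library's reads, so the tissue carried the marker genes of heart muscle. Blood markers, all 5 of them measured, summed to 0.133% in TAC saline and 0.269% in TAC NRG. That difference had an exact two-sided permutation p of 0.00794, the smallest that 5 against 5 can give, and 0.0794 after adjustment over 30 tests. By limma 74 of all 11018 tested genes rose in TAC NRG against TAC saline, and 8.74% rose against sham saline. Of the blood markers 5 of 5 rose in the first comparison, with a median log2 fold change of 1.03, and 5 of 5 in the second. In the first of these comparisons the count was 0 without TAC NRG 4, 1 without TAC NRG 5, 3 without TAC saline 4 and 0 with a robust spread, and in both it was 0 without TAC NRG 4 and 5 together. Whether each library is a separate mouse is not in the labels, so all p-values refer to the spread among these libraries, which may be technical. Levels are in CPM, obtained by turning the deposited log2 values back into reads and applying the authors' factor for each library. Differences are log2 fold changes ± SE from limma on the deposited values, adjusted over all 11018 genes tested with a threshold of 0.05, and "rose" or "fell" is written only past it.

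Under TAC, 4 of the 7 chemokine ligands rose, 1 fell and 2 did not pass the test. The MCP family genes Ccl2, Ccl7 and Ccl8 and the interferon-induced Cxcl10 rose, and the eosinophil chemokine Ccl11 fell. Over all tested genes 6.47% rose and 4.24% fell in the same comparison. Of all calls 60.4% were thus higher, and 84.9% were under scaling to total reads alone, which changed no call on the 7 ligands here. The median log2 fold change was 1.013 over the 7 genes and -0.01 over all genes. The libraries of both groups did not overlap for 2 genes on the higher side (Ccl8 and Cxcl10; 4.69% of all genes) and for 1 on the lower side (Ccl11; 3.67% of all genes). In bulk tissue, more cells that express a gene and more RNA per cell cannot be told apart.

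**Figure D1:**
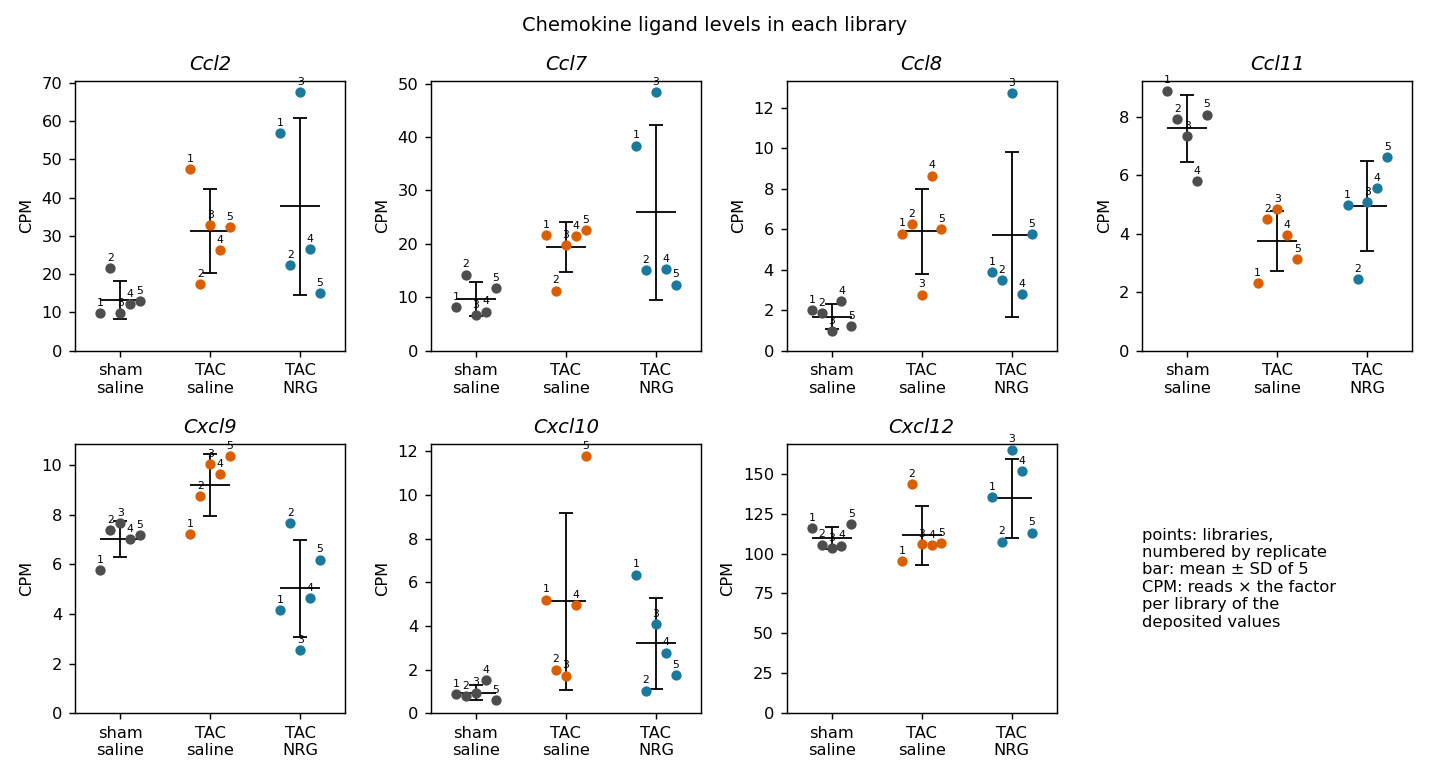
Level of each chemokine ligand in CPM (vertical axes, each from 0) in the 5 libraries of sham saline, TAC saline and TAC NRG, with the mean and SD as bars and the replicate number beside each point. Ccl8 and Cxcl10 in TAC saline lie above all sham saline libraries, Ccl11 in TAC saline lies below them, and the TAC NRG libraries of Ccl2 spread from 15 to 67.5 CPM.

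Ccl2, also called MCP-1, is the main CCR2 ligand. Its level in sham saline 1 to 5 was 9.78, 21.6, 9.89, 12.2 and 12.9 CPM. In TAC saline it was 47.4, 17.5, 32.9, 26.2 and 32.2 CPM. Of the TAC saline libraries, 4 lay above all sham saline libraries, and the groups overlapped through sham saline 2 and TAC saline 2. The means were 13.3 ± 4.87 and 31.3 ± 10.95 CPM (SD, n = 5), a log2 fold change of 1.22 ± 0.31, or 2.32-fold with a 95% interval of 1.5 to 3.61 (limma adjusted p = 0.0118). With a robust estimate of the spread the adjusted p was 0.0823. These values rest on 31 to 82 reads per sham saline library and 70 to 164 per TAC saline library.

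Ccl7, or MCP-3, is the other strong CCR2 ligand and is the next gene to Ccl2. It was at 8.23, 14.2, 6.70, 7.32 and 11.7 CPM in sham saline 1 to 5. It was at 21.7, 11.2, 19.7, 21.5 and 22.6 CPM in TAC saline 1 to 5. As for Ccl2, TAC saline 2 was the lowest of its group and sham saline 2 the highest of its own, and the groups overlapped because TAC saline 2 lay below sham saline 2 and 5. The mean went from 9.63 ± 3.21 to 19.4 ± 4.65 CPM (SD, n = 5), a log2 fold change of 1.013 ± 0.30 (limma adjusted p = 0.0287). The call was lost with voom (adjusted p = 0.0586), with a robust spread (0.116) and in 6 of the 15 fits that left out 1 library, which were sham saline 1, 3 or 4 and TAC saline 1, 4 or 5 (0.0642 to 0.0870).

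Ccl8, or MCP-2, is the last ligand of this cluster in the set. Its sham saline levels were 2.00, 1.85, 0.957, 2.44 and 1.2 CPM, from only 3 to 9 reads per library. In TAC saline it was at 5.78, 6.25, 2.77, 8.65 and 6.01 CPM, from 8 to 35 reads. Every TAC saline library lay above every sham saline library. The log2 fold change was 1.70 ± 0.37, or 3.26-fold with a 95% interval of 1.93 to 5.50 (limma adjusted p = 0.00363). It stayed past the threshold in 25 of 25 alternatives.

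Ccl11, or eotaxin, was the single listed chemokine that fell. Sham saline libraries 1 to 5 had 8.89, 7.91, 7.34, 5.80 and 8.08 CPM. TAC saline libraries had 2.31, 4.50, 4.85, 3.96 and 3.13 CPM. The groups did not overlap, with the highest TAC saline library below the lowest sham saline library. The log2 fold change was -1.03 ± 0.26, which is 2.04-fold lower (limma adjusted p = 0.0130). Reads were 19 to 40 per sham saline library and 8 to 18 per TAC saline library, and when every library was thinned to 2.02 M reads the call was kept in 5 of 10 draws.

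Markers of eosinophils, the cells that CCL11 draws, were at the floor of these data. Ear2 was the one gene of a list of 7 that was measured, at 0 to 4 reads per library. The other 6 markers, Siglecf, Epx, Prg2, Ear1, Ear6 and Il5ra, and the CCL11 receptor gene Ccr3 were not analysed here. A change in eosinophils was not detectable at this depth.

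Cxcl10, or IP-10, rose under TAC from a level near the floor of these data. In sham saline it was at 0.889, 0.791, 0.957, 1.53 and 0.598 CPM, from 2 to 5 reads per library and 17 reads in all. In TAC saline it was at 5.21, 2.00, 1.73, 4.95 and 11.8 CPM, from 5 to 49 reads per library and 100 in all. All TAC saline libraries lay above all sham saline libraries, but they spread 6.81-fold among themselves. The log2 fold change was 2.00 ± 0.49, or 3.99-fold with a 95% interval of 1.99 to 8.0 (limma adjusted p = 0.00911). Without TAC saline 5, the highest library, it was 1.62 with an adjusted p of 0.0509, and 8 of 10 thinned draws kept the call.

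Cxcl9, the partner of Cxcl10 in interferon responses, was not called under TAC. Sham saline libraries had 5.78, 7.39, 7.66, 7.02 and 7.18 CPM, and TAC saline libraries 7.23, 8.75, 10.04, 9.64 and 10.3 CPM. The groups overlapped through TAC saline 1. The log2 fold change was 0.38 ± 0.23, with a 95% interval of -0.09 to 0.86 (limma adjusted p = 0.335). The mean log2 ratio of Cxcl10 over Cxcl9 within a library was -2.76 ± 0.46 in sham saline and -1.14 ± 1.09 in TAC saline (SD, n = 5), and ranged from -3.29 to -2.10 in the first and from -2.42 to 0.19 in the second.

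Cxcl12, or SDF-1, was the deepest sampled of the set, with 256 to 648 reads per library. Sham saline libraries had 116, 106, 103, 105 and 118 CPM. TAC saline libraries had 95.4, 143, 106, 105 and 107 CPM. The groups overlapped, and TAC saline 2 stood above the rest. The log2 fold change was 0.01 ± 0.11, and its 95% interval of -0.22 to 0.24 leaves out changes of the size seen for Ccl2 or Ccl8 (limma adjusted p = 0.972).

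**Figure D2:**
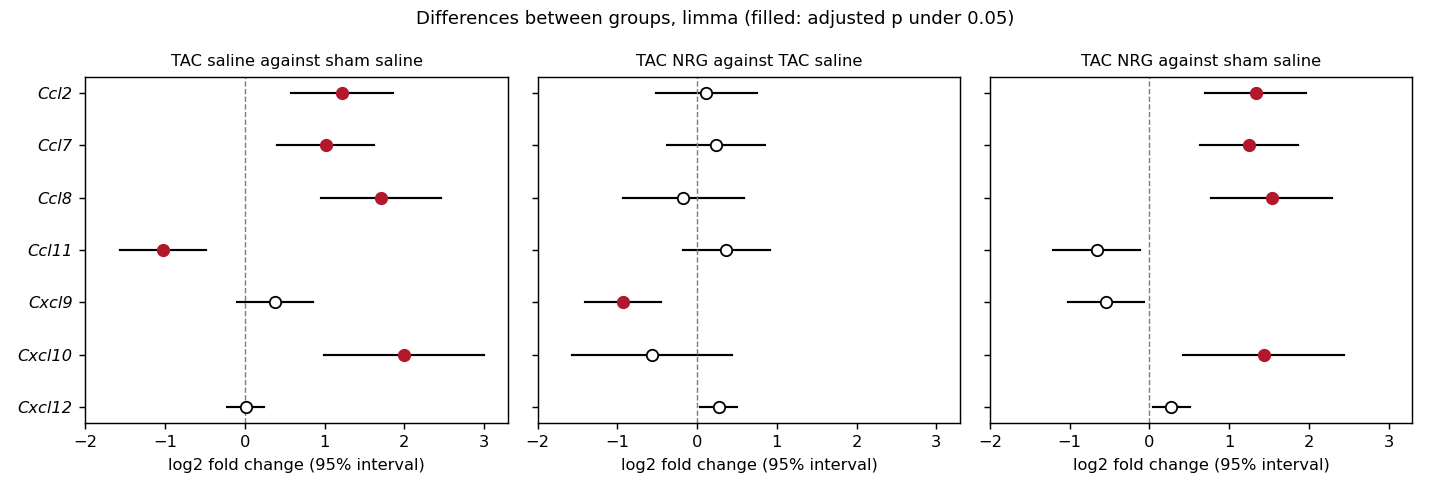
Log2 fold change of each chemokine ligand (horizontal axis) with its 95% interval from limma in the 3 comparisons, filled where the adjusted p was under 0.05. TAC saline against sham saline has 5 filled points, TAC NRG against TAC saline has 1, Cxcl9 at -0.92, and TAC NRG against sham saline has 4.

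Under NRG in the constricted ventricle, 1 of the 7 ligands was called. Cxcl9 fell, and no listed chemokine rose. Over all genes 0.626% fell in this comparison. Median log2 fold changes were 0.12 over the set and -0.01 over all genes. Without adjustment 2 of the 7, Cxcl9 and Cxcl12, had p under 0.05, and voom called 0 of the 7.

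Cxcl9 was at 4.15, 7.65, 2.55, 4.64 and 6.19 CPM in TAC NRG 1 to 5. Of these, 4 lay below all 5 TAC saline libraries, and TAC NRG 2, the deepest library, lay among them. Means were 9.20 ± 1.25 CPM in TAC saline and 5.04 ± 1.96 CPM in TAC NRG (SD, n = 5), a log2 fold change of -0.92 ± 0.23, which is 1.90-fold lower (limma adjusted p = 0.0428). The TAC NRG values rest on 10 to 44 reads per library. This call was close to the threshold and was lost in 18 of 25 alternatives, over which the adjusted p ran from 0.0142 to 0.107 and the log2 fold change from -1.09 to -0.71. Leaving out 1 library ended it for sham saline 1, 2, 4 or 5, any of the 5 TAC saline libraries, and TAC NRG 1, 3 or 4. It held in 3 of 10 thinned draws.

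Cxcl10 did not pass the test between TAC NRG and TAC saline. It was at 6.36, 1.04, 4.08, 2.79 and 1.77 CPM in TAC NRG 1 to 5, from 4 to 23 reads. TAC NRG 2 lay below all TAC saline libraries and the other four lay within their range. The log2 fold change was -0.56 ± 0.49, with an interval of -1.57 to 0.44 (limma adjusted p = 0.626). Whether Cxcl9 and Cxcl10 differed in their response to NRG was not tested. The log2 ratio of Cxcl10 over Cxcl9 was -0.78 ± 1.48 in TAC NRG (SD, n = 5), from -2.78 in TAC NRG 2 upward to 0.65.

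The MCP family genes had a wider spread in TAC NRG than in TAC saline, with SDs of the log2 value of 0.91 against 0.52 for Ccl2, 0.89 against 0.42 for Ccl7 and 0.83 against 0.58 for Ccl8; the difference in spread was not tested. Ccl2 was at 56.9, 22.4, 67.5, 26.5 and 15 CPM in TAC NRG 1 to 5, a 4.49-fold range against 2.71-fold in TAC saline. Ccl7 was at 38.4, 15.1, 48.4, 15.3 and 12.4 CPM in the same libraries. Ccl8 was at 3.87, 3.48, 12.7, 2.79 and 5.75 CPM. TAC NRG 3 was the highest library for all 3 genes and TAC NRG 1 was the next for Ccl2 and Ccl7, while the remaining libraries lay between 15 and 26.5 CPM for Ccl2 and between 12.4 and 15.3 CPM for Ccl7, where the highest sham saline library had 21.6 and 14.2 CPM. Against TAC saline the log2 fold changes were 0.12 ± 0.31 for Ccl2, 0.24 ± 0.30 for Ccl7 and -0.17 ± 0.37 for Ccl8 (limma adjusted p of 0.892, 0.750 and 0.865). Their 95% intervals were -0.52 to 0.75, -0.37 to 0.85 and -0.93 to 0.58. Each changed sign when certain single libraries were left out, so no direction is given for them.

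Ccl11 and Cxcl12 also did not pass the test against TAC saline. Ccl11 was at 4.98, 2.44, 5.09, 5.57 and 6.63 CPM in TAC NRG, with 4 libraries above all of TAC saline and TAC NRG 2 near its lowest. Its log2 fold change was 0.36 ± 0.26 (limma adjusted p = 0.544). Cxcl12 was at 135, 108, 165, 151 and 113 CPM, with 2 libraries above all of TAC saline. Its log2 fold change was 0.27 ± 0.11, with an interval of 0.04 to 0.50 before any adjustment (limma adjusted p = 0.253).

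Against sham saline, 4 of the 7 ligands rose in TAC NRG and 0 fell, where 8.74% of all 11018 genes rose and 814 genes fell. Each of the 7 had p under 0.05 without adjustment, and voom also called 4, with Ccl11 among them in place of Cxcl10. This comparison shares the sham saline libraries with the first and the TAC NRG libraries with the second, so its values are not independent of theirs. The log2 fold changes of the 4 that rose were 1.33 ± 0.31 for Ccl2 (limma adjusted p = 0.00397), 1.25 ± 0.30 for Ccl7 (0.00478), 1.53 ± 0.37 for Ccl8 (0.00516) and 1.43 ± 0.49 for Cxcl10 (0.0459). Ccl8 was the one whose libraries did not overlap (6.23% of all genes on the higher side). The Cxcl10 call was lost in 12 of 25 alternatives, with adjusted p up to 0.159, of which 9 left out 1 library: sham saline 1, 2, 3 or 5, TAC saline 1 or 4, or TAC NRG 1, 3 or 4. It held in 4 of 10 thinned draws, over which the log2 fold change ran from 0.67 to 2.21 and the adjusted p up to 0.571. Ccl2 and Ccl7 stayed past the threshold in all 26 alternatives, and Ccl8 in 24 of 25. In thinned draws Ccl8 passed in 7 of 10, with log2 fold changes from 0.93 to 2.13 and adjusted p up to 0.113.

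Ccl11, Cxcl9 and Cxcl12 did not pass against sham saline. Ccl11 had a log2 fold change of -0.66 ± 0.26 (limma adjusted p = 0.0891), with 4 of 5 TAC NRG libraries below all sham saline libraries. It passed with voom (0.0206) and without TAC NRG 4 and 5 (0.0421). Cxcl9 was at -0.54 ± 0.23 (0.114) and passed without TAC NRG 2 (0.0355). Cxcl12 was at 0.28 ± 0.11 (0.0923), and passed without TAC NRG 2 (0.0309) and under scaling to total reads alone (0.0318).

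**Figure D3:**
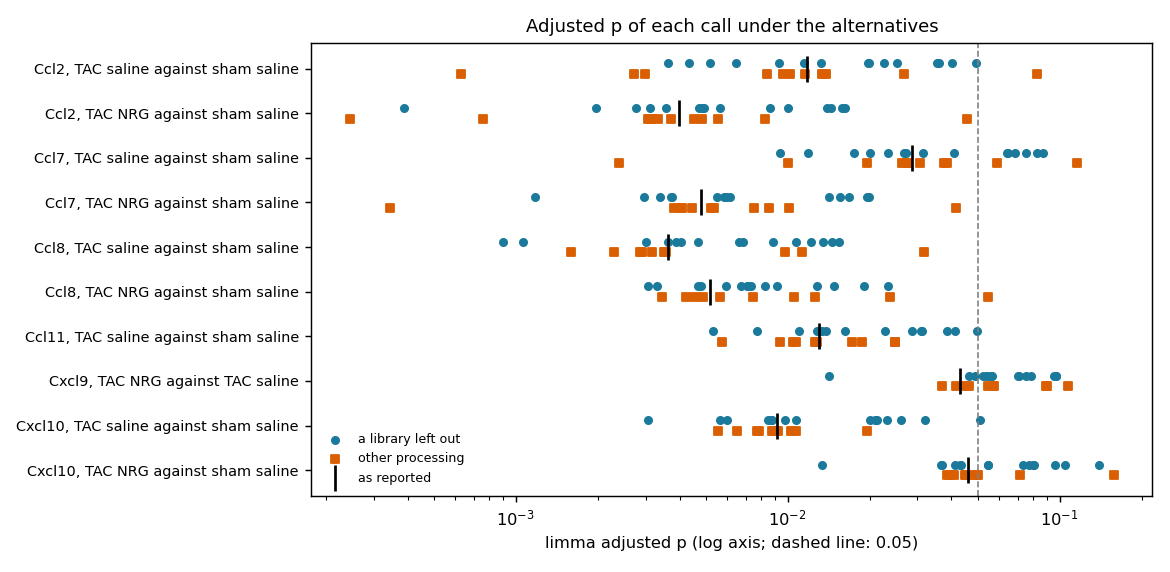
Limma adjusted p (horizontal log axis, dashed line at 0.05) of each call on a chemokine ligand as reported (black bar), with 1 library left out (circles) and under other processing (squares). All points for Ccl8 in TAC saline lie left of the line, while those for Cxcl9 in TAC NRG against TAC saline straddle it, from 0.0142 to 0.107.

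Library by library, Ccl2 and Ccl7 moved together. Over the 15 libraries the Pearson r of their deposited log2 values was 0.96, and after taking out group means it was 0.93. Of 10618 tested genes that are not predicted genes, each was the other's closest. The log2 ratio of Ccl2 over Ccl7 stayed at 0.45 ± 0.25 in sham saline, 0.66 ± 0.31 in TAC saline and 0.53 ± 0.18 in TAC NRG (SD, n = 5). Both are similar in sequence and lie on 1 chromosome, and shared reads between them were not tested. Ccl8, a few genes further on, was less alike, with r of 0.66 with Ccl2 and 0.24 for deviations. Ccl11, which lies between Ccl7 and Ccl8, had r of -0.56 with Ccl2, and -0.17 for deviations. The log2 ratio of Ccl2 over Ccl11 was 0.74 ± 0.51 in sham saline, 2.99 ± 0.87 in TAC saline and 2.74 ± 1.05 in TAC NRG.

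**Figure D4:**
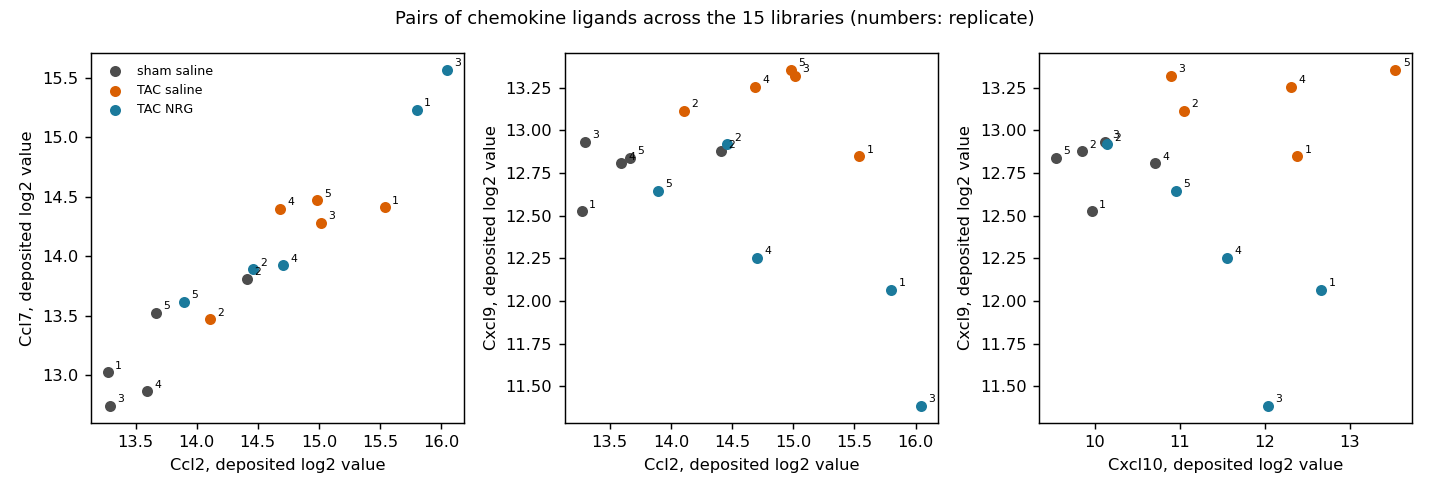
Deposited log2 values of 3 pairs of ligands in the 15 libraries, coloured by group and numbered by replicate: Ccl7 against Ccl2, Cxcl9 against Ccl2 and Cxcl9 against Cxcl10. Ccl2 and Ccl7 lie along 1 line, and TAC NRG 3, the highest library for Ccl2, is the lowest for Cxcl9.

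After taking out group means, Cxcl9 had r of -0.64 with Ccl2, -0.62 with Ccl7 and -0.55 with Ccl8, pooled over the 15 libraries. The r inside each group was not taken, so these values do not show an inverse relation in every group. TAC NRG weighs most in them. The SD of the log2 value of Cxcl9 was 0.16 in sham saline, 0.21 in TAC saline and 0.59 in TAC NRG. TAC NRG 3 alone had the highest Ccl2, Ccl7 and Ccl8 of all libraries and the lowest Cxcl9. Cxcl9 and Cxcl10, the interferon-induced pair, had r of -0.10, and -0.44 for deviations. Cxcl9 and Cxcl12 had r of -0.73, and -0.63 for deviations. These correlations are descriptions over 15 libraries that share groups, depth and scaling.

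The genes closest in pattern to each ligand were taken as the 3 with the highest r over the 15 libraries. After Ccl7, Ccl2 was most like Eif1a, a translation initiation factor gene (0.91), and Nkd2 (0.91). After Ccl2, Ccl7 was most like Tgfb1, which encodes the cytokine TGF-beta 1 (0.90), and Uba2, a SUMO activating enzyme subunit gene (0.89). Ccl8 was most like Actr3, of the actin nucleating ARP2/3 complex (0.95), Ly6c1 (0.92) and Anxa1, which encodes annexin A1 (0.91). Cxcl10 was most like Mki67 (0.92) and Racgap1 (0.91), which mark and serve dividing cells, and Fkbp1a (0.91). Mki67 rose by 2.06 ± 0.39 under TAC (limma adjusted p = 0.00123) and Racgap1 by 2.57 ± 0.42 (0.000265). Ccl11 was most like Alkbh5, an RNA demethylase gene (0.89), Cd59a (0.87) and Sdf2 (0.86). Cxcl9 was most like Zfp366 (0.88), the kinase gene Map2k6 (0.85) and Prkrip1 (0.85). Cxcl12 was most like Egln3, an oxygen-sensing hydroxylase gene (0.87), the nuclear receptor gene Pparg (0.85) and Tmem161a (0.82). Egln3 rose by 0.48 ± 0.12 under NRG (limma adjusted p = 0.0403), where the Cxcl12 log2 fold change of 0.27 was not called. With 15 libraries and 10618 candidates, high values arise for any gene, and nothing is drawn from them.

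Other chemokine ligands did not pass the test under TAC. Of a list of 33, 17 were measured and 10 were tested, and limma called 0, with 4 at p under 0.05 before adjustment and 1 called by voom. Their median log2 fold change was 0.20. Ccl12, the mouse CCR2 ligand between Ccl11 and Ccl8, had 1.09 ± 0.58 (limma adjusted p = 0.258) on 2 to 15 reads per library in these groups. The neutrophil chemokine Cxcl1 had 0.65 ± 0.49 (0.462), and Ccl6 and Ccl9, made by myeloid cells, had 0.03 ± 0.20 (0.958) and 0.29 ± 0.24 (0.515). Under NRG limma again called 0 of the 10, with 1 at unadjusted p under 0.05 and 0 by voom. Against sham saline in TAC NRG, Cx3cl1, which encodes the membrane-bound ligand fractalkine, rose by 0.63 ± 0.21 (0.0440), a call lost in 12 of 26 alternatives.

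Receptors that pair with the set were sparsely read. Of 18 chemokine receptor genes 8 were measured and 4 tested. Under TAC 2 of the 4 rose, with a median log2 fold change of 1.08 over the 4, where 6.47% of all genes rose. Ccr2, the receptor for CCL2 and CCL7, rose from 1.82 ± 0.49 to 4.92 ± 2.47 CPM (SD, n = 5), a log2 fold change of 1.28 ± 0.36 (limma adjusted p = 0.0246). Its call was lost in 5 of 25 alternatives, each leaving out 1 library: sham saline 4 or 5, or TAC saline 1, 4 or 5. Cx3cr1, the fractalkine receptor of monocytes and macrophages, rose from 1.5 ± 1.14 to 4.54 ± 1.61 CPM, by 1.74 ± 0.51 (0.0270). That call was lost in 6 of 25, on leaving out sham saline 2 or 3, or TAC saline 1, 2, 4 or 5. Ccr1 had 0.87 ± 0.40 (0.178). Cxcr4, the CXCL12 receptor, was below the filter, with 4 to 15 reads per sham saline library and 6 to 11 per TAC saline library. Cxcr3, Ccr3, Ccr8 and Ackr1 were not analysed here.

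Under NRG limma called 0 of the 4 receptors, with 1 at unadjusted p under 0.05 and 0 by voom. Ccr2 had a log2 fold change of -0.53 ± 0.36 (limma adjusted p = 0.514), Cx3cr1 -1.26 ± 0.51 (0.232) and Ccr1 0.45 ± 0.40 (0.635). In TAC NRG against sham saline Ccr1 rose by 1.33 ± 0.40 (0.0251), a call lost in 9 of 25 alternatives, 6 of them leaving out sham saline 1, 2 or 5, or TAC NRG 1, 3 or 4.

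Scavenging receptors and ligand-cutting proteases made up a list of 9 genes, of which 6 were tested. Ackr4 and Mmp2 rose under TAC, where 6.47% of all genes rose. Ackr4, a decoy receptor that removes CC chemokines without signalling through G proteins, rose by 1.11 ± 0.29 (limma adjusted p = 0.0162), a call lost without sham saline 3 or TAC saline 5. Mmp2, a matrix protease that can clip CCL7 and CXCL12, went from 38.1 ± 4.36 to 57.6 ± 12.98 CPM (SD, n = 5), a rise of 0.58 ± 0.12 (0.00280) that held in 26 of 26 alternatives. Ackr3, the CXCL12 scavenger, was at 101 ± 15.2 CPM in sham saline, 109 ± 22.2 in TAC saline and 60.7 ± 7.76 in TAC NRG. It did not pass the test under TAC (0.10 ± 0.12, 0.676), and under NRG it fell by 0.83 ± 0.12 (0.000313), also in 26 of 26 alternatives. In the same comparison Cxcl12 itself was not called. In TAC NRG against sham saline Ackr4 and Mmp2 rose and Ackr3 fell (limma adjusted p of 0.00160, 0.00386 and 0.000159).

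The interferon pathway, which drives Cxcl9 and Cxcl10, held 7 genes that rose under TAC as Cxcl10 did. These were 7 of 21 tested genes, and none fell, with a median log2 fold change of 0.41. Over all genes 6.47% rose and 4.24% fell. Irf7, a transcription factor of interferon responses, rose by 1.07 ± 0.18 (limma adjusted p = 0.000469), and Oasl2, an antiviral effector gene, by 0.95 ± 0.19 (0.00168). Irf9, a transcription factor that binds the interferon response core, rose by 0.81 ± 0.17 (0.00257), and the antiviral Ifit3 by 1.22 ± 0.28 (0.00534). These 4 stayed past the threshold in 26 of 26 alternatives. The other three, Isg15, Ifit1 and Rsad2, were lost in 9 of 25, 13 of 26 and 9 of 26, and the count of genes that rose was 4 after thinning and without sham saline 1 or 3 or TAC saline 1 or 5, and 11 under scaling to total reads alone.

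Under NRG, where Cxcl9 fell, most genes of the interferon list had lower values. The median log2 fold change of the 21 genes was -0.31, 2 were above 0, and 2 fell, where 0.626% of all genes fell. Some cell type lists had a like shift. Of monocyte and macrophage markers 2 of 14 were above 0 (median -0.22), as was 1 of 7 endothelial markers (median -0.21). Fibroblast markers (7 of 9 above 0, median 0.21) and cardiomyocyte markers (5 of 7, 0.10) did not shift so. Nor did mural (3 of 6, 0.03) or blood markers (5 of 5, 1.03). Whether the interferon list differed from these was not tested. Gbp3, a guanylate-binding protein gene induced by interferon gamma as Cxcl9 is, fell from 13.8 ± 4.70 to 7.42 ± 1.05 CPM (SD, n = 5), by 0.83 ± 0.20 (limma adjusted p = 0.0398). Oasl2 fell from 11.3 ± 1.89 to 6.51 ± 1.02 CPM, by 0.78 ± 0.19 (0.0351). Like Cxcl9, both sat near the threshold: the Gbp3 call was lost in 13 of 26 alternatives, among them leaving out sham saline 1, TAC saline 4 or 5, or TAC NRG 2, 3, 4 or 5. The Oasl2 call was lost in 12 of 26, among them leaving out TAC saline 2, 4 or 5, or TAC NRG 1, 3, 4 or 5. In TAC NRG against sham saline Irf9 rose (0.0336) and the kinase gene Jak1 fell (0.00154), and the Irf9 call was lost in 8 of 26 alternatives.

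**Figure D5:**
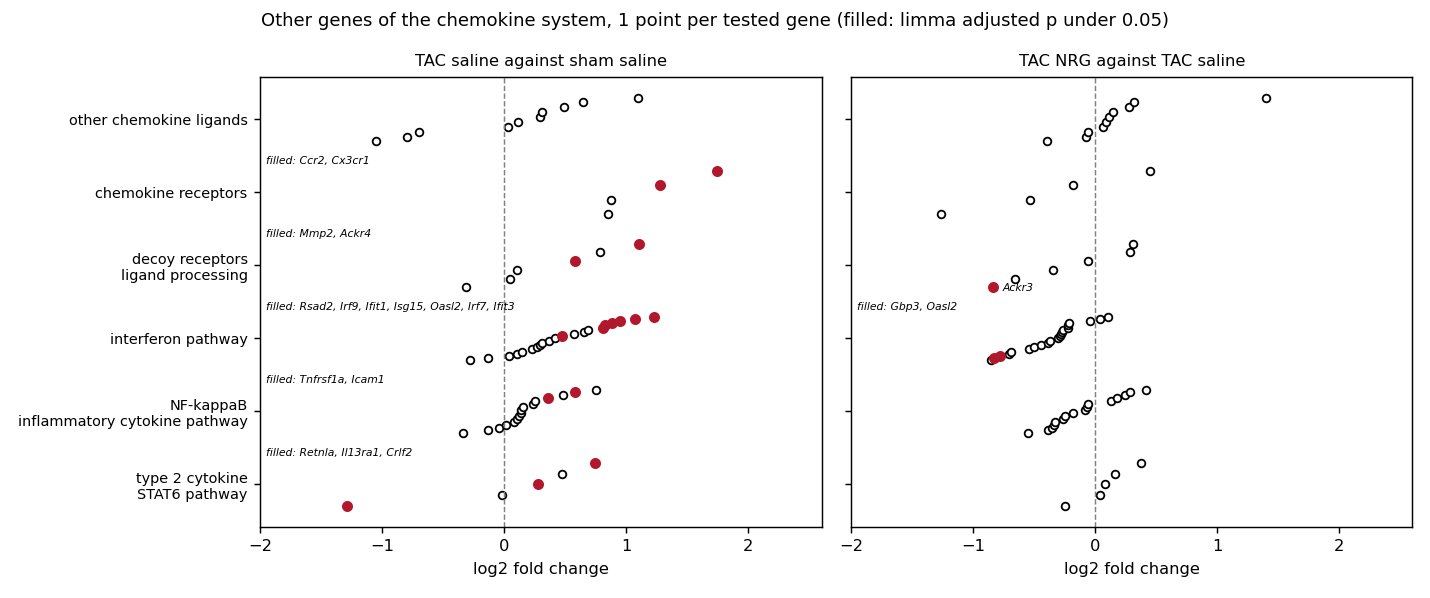
Log2 fold change (horizontal axis) of the tested genes of 6 lists around the chemokine ligands, 1 point per gene, in TAC saline against sham saline and TAC NRG against TAC saline, filled and named where the limma adjusted p was under 0.05. Most interferon pathway genes lie right of 0 under TAC (median 0.41) and left of 0 under NRG (median -0.31).

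The NF-kappaB list, which holds inducers of Ccl2 and Cxcl10 such as TNF and IL-1 signalling genes, had few calls. Under TAC 2 of 16 tested genes rose, where 6.47% of all genes rose, and the list median was 0.13. Tnfrsf1a, the TNF receptor gene, rose by 0.36 ± 0.11 (limma adjusted p = 0.0301). Icam1, an adhesion molecule gene for white blood cells, rose by 0.58 ± 0.17 (0.0337). These calls were lost in 7 and 9 of 26 alternatives, and the count went to 0 after thinning and without sham saline 1 or 3 or TAC saline 1, 4 or 5. Under NRG limma called 0 of 16, with 1 at unadjusted p under 0.05 and 0 by voom. In TAC NRG against sham saline Tnfrsf1a (0.000152) and the alarmin gene Il33 (0.0220) rose, the latter not without sham saline 4, TAC NRG 1 or TAC NRG 4 (adjusted p up to 0.0685).

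Genes of type 2 cytokine signalling, the pathway that induces Ccl11 through STAT6, did not move as one. Of 5 tested under TAC, 2 rose and 1 fell, where 6.47% of all genes rose and 4.24% fell. Crlf2, a TSLP receptor gene, rose by 0.74 ± 0.22 (limma adjusted p = 0.0340), and Il13ra1, an IL-4 and IL-13 receptor gene, by 0.27 ± 0.09 (0.0465). Both calls were lost in many alternatives, 8 of 26 and 13 of 26, and the count fell to 0 after thinning and without sham saline 2, 3 or 5 or TAC saline 1 or 5. Retnla, a target of this pathway in macrophages, fell from 6.54 ± 1.31 to 2.78 ± 1.18 CPM (SD, n = 5), by 1.29 ± 0.34 (0.0148), lost after thinning and without TAC saline 5. Under NRG limma called 0 of 5, with 0 at unadjusted p under 0.05 and 0 by voom. In TAC NRG against sham saline Il4ra (0.0208) and Il13ra1 (0.00127) rose and Retnla fell (0.0131), where Ccl11 was not called. The Il4ra call was lost after thinning and without sham saline 1 or TAC NRG 3 (adjusted p up to 0.113), and that of Retnla after thinning (0.0695).

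Markers of the cells that make or answer these chemokines were set beside them. Of 14 tested monocyte and macrophage markers, 7 rose under TAC, where 6.47% of all genes rose. Among them C1qa rose by 0.53 ± 0.13 (limma adjusted p = 0.00997) and Tyrobp by 0.65 ± 0.14 (0.00384). The count was between 2 and 4 without any 1 of sham saline 1, 3 or 5, or TAC saline 1, 2 or 4. All 17 markers had reads, and their summed share was 0.0554 to 0.0871% in sham saline, 0.0655 to 0.128% in TAC saline and 0.0559 to 0.110% in TAC NRG. These sums overlapped (exact two-sided permutation p of 0.0635 for TAC saline against sham saline, 0.147 adjusted over 30 tests). Under NRG limma called 0 of the 14, with 1 at unadjusted p under 0.05 and 0 by voom. Ly6c2, a marker of freshly recruited monocytes, had 0 to 9 reads per library and was not tested.

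Of 9 fibroblast markers tested, 6 rose under TAC and 3 did not pass the test, where 6.47% of all genes rose. Postn rose by 2.77 ± 0.29 and Col1a1 by 1.70 ± 0.21 (limma adjusted p of 2.3e-06 and 1.4e-05). Their summed share was 0.103 to 0.118% in sham saline, 0.145 to 0.300% in TAC saline and 0.191 to 0.384% in TAC NRG, with no overlap of either TAC group with sham saline (exact two-sided permutation p = 0.00794, 0.0794 adjusted). Endothelial markers, of which 7 of 7 were tested, summed to 0.0401 to 0.0456%, 0.0425 to 0.0575% and 0.0389 to 0.0447% in the same order. Their p was 0.0397 for TAC saline against sham saline and 0.0238 for TAC NRG against TAC saline by exact two-sided permutation, and 0.147 and 0.119 when adjusted. Mural markers, all 6 tested, summed to 0.0473 to 0.0580%, 0.0479 to 0.0689% and 0.0495 to 0.0696%. The part of tissue makeup, and of the blood share above, in the chemokine values was not tested.

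T cells and NK cells, which answer CXCL9 and CXCL10, left few reads. Of 12 markers 4 were measured, Cd4, Trac, Nkg7 and Gzmb, with 1 to 13 summed reads per library, and Ifng and the CD3 genes were not analysed here. Neutrophil markers, 3 of 6 measured, had 3 to 21 summed reads per library, and B cell markers, 2 of 4, had 0 to 7. In TAC NRG against sham saline the summed share was higher for neutrophil markers (exact two-sided permutation p = 0.0159, 0.119 adjusted over 30 tests) and lower for B cell markers (exact p = 0.0238, 0.119 adjusted), and neither passed after adjustment. The T and NK cell sums had exact p from 0.627 to 0.881 over the 3 comparisons.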

How the data were processed

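Left ventricular RNA was measured by BRB-seq in 15 libraries, 5 each of sham saline, TAC saline and TAC NRG, per the labels. The deposited log2 values are, as read from their spacing, the authors' log2 of reads plus 0.5 times a factor per library. The genome build was GRCm39, per the submitters' processing notes; for the aligner, read counter and normalization: not given in the sources used here. Whole reads were recovered by undoing the factor: per library, 98.9 to 99.5% of values came out whole (tolerance 0.05 reads), as did 100.0% of values below 1000 reads. Libraries of a group were not duplicates, with chi-square per degree of freedom of 2.27 to 12.1.

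Tested genes had 2.95 or more reads per M, equal to 10 in a library of median depth, in 5 libraries or more, and a total of 15 reads or more; 11018 genes passed and 4240 did not. The plan held a count test if the files held whole counts; since they held log2 values, limma 3.58.1 (R 4.3.3) with an intensity trend was fitted to the deposited values of all 15 libraries, two-sided, with Benjamini-Hochberg adjustment. The fit was tested on simulated data. Marker sums were compared by exact permutation. The members and lists were chosen with earlier results of these data known. All 7 ligands are named, with up to 4 called genes per list, the receptors of the ligands and the 3 genes most like each ligand. Some list genes are not reported here by name. Marker genes, Art3 and a few further list genes were named after their values were seen. Alternatives covered scaling, voom, filter, pseudocount, groups in the fit, replicate block, robust spread, thinning, TAC NRG 4 and 5 left out together and each library left out. Thinning draws 2 to 10 were chosen after seeing the data. Where no draw is named or counted, results after thinning are from the first draw. Promoter windows are RefSeq's on GRCm38.p6, a build other than that of the files, so no gene coordinates were joined. Further steps used Python 3.11.15 with numpy 2.4.6, pandas 2.3.3, matplotlib 3.10.9 and scipy 1.17.1.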

Additional observations from a re-analysis of the deposited data

Results flagged for a closer look

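Of the 21 gene and group combinations looked at, 2 had 1 library far from the other four, judged by its gap to the nearest of them over the whole range of the group; chance gives this in about 1 in 20 groups. Both were TAC saline 2. Its Ccl7 level of 11.2 CPM was the lowest, against 19.7 to 22.6 CPM in the others (gap over range 0.809). Its Cxcl12 level of 143 CPM was the highest, against 95.4 to 107 CPM (0.731).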

How the results depend on the processing

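The count of chemokine ligands past the threshold under TAC was 5 as reported, 2 with a filter 3 times as strict, which left 3 of the 7 in the test, and 3 with a robust spread, and 3 to 5 when 1 library was left out (3 without TAC saline 5). Under NRG it was 1 as reported. It was 0 with voom, with no filter and with only the 2 groups in the fit. It was also 0 with a replicate block and without TAC NRG 4 and 5 together. With the strict filter the count was 0 too, but Cxcl9 was then not in the test. After thinning it was 0 in the first draw, while 3 of 10 draws kept Cxcl9. When 1 library was left out the count was 0 to 1. Against sham saline in TAC NRG it was 4, 2 with the strict filter, and 3 to 6 when 1 library was left out. Over all genes the count was 1180 under TAC, 636 to 1495 when 1 library was left out (708 without TAC saline 1, 636 without TAC saline 5), and 143 under NRG, 58 to 229 when 1 library was left out. The latter was 77 with only the 2 groups in the fit and 39 without TAC NRG 4 and 5 together; the libraries that moved it by more than 1.5 times were TAC saline 1, 4 and 5 and TAC NRG 2, 4 and 5. Against sham saline in TAC NRG 1777 genes were called.

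For 4 ligands uncalled values changed sign when single libraries were left out, over ranges of -0.09 to 0.06 for Cxcl12 under TAC, and of -0.15 to 0.39 for Ccl2, -0.04 to 0.45 for Ccl7 and -0.51 to 0.02 for Ccl8 under NRG. The Cxcl12 values below 0 were -0.0034, -0.011 and -0.0053 without sham saline 2, 3 and 4 and -0.085 without TAC saline 2. The Ccl2 values below 0 were -0.073 without TAC saline 2, -0.088 without TAC NRG 1 and -0.15 without TAC NRG 3. Ccl7 was at -0.040 without TAC NRG 3 and Ccl8 at 0.015 without TAC NRG 4, and the highest Cxcl12 value was 0.062 without TAC saline 1. Thinning also turned Cxcl12 in draw 8 (-0.048) and Ccl8 in draws 3 and 5 (0.032 and 0.043). The cause was not tested.

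Scaling to total reads alone took the all-gene median log2 difference from -0.01 to 0.10 under TAC and to 0.08 in TAC NRG against sham saline. The share of calls that were higher went from 60.4% to 84.9% and from 54.2% to 75.9%. No call on a ligand changed but that of Cxcl12 in TAC NRG against sham saline.

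Libraries with the same replicate number did not deviate together: r was -0.246 to 0.0795 over 15 pairs and 2 libraries were closest to one of their own number. With a replicate block, Cxcl9 under NRG had a limma adjusted p of 0.0546 and no other call on a ligand changed. Ccl8, Cxcl10, Ccl11 and Cxcl9 rest on 2 to 50 reads per library, which limits how small a change can be seen.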
